A study of Mus musculus with 5 samples.

Results

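The chains examined here bind the cytokines IL-2, IL-15, IL-7, IL-4, IL-21 and IL-9. They were chosen by gene name, with earlier results of these data known, and are 8 of the 35275 genes in the table: Il2ra, Il2rb, Il2rg, Il15ra, Il7r, Il4ra, Il21r and Il9r. All 8 had enough reads to be tested. RNA was sequenced from 5 libraries of sorted spleen cells of wild-type C57BL/6 mice, 3 months old, with no other allele or treatment named. The groups were CD8+ regulatory T cells (CD8 Treg, 1 library), CD4+ regulatory T cells (CD4 Treg, 2 libraries) and cells labelled CD49lo (2 libraries). The series sets both kinds of regulatory cell against CD8+ cells that resemble effectors, and the CD49lo libraries fill that place by elimination, because their name is not explained. The labels give a CD8 enrichment before staining and sorting for all 5 libraries, the CD4 Treg ones included.

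These receptors are assembled from few parts. Il2rg encodes the common gamma chain (CD132), which serves the receptors of all 6 cytokines. Il2rb encodes CD122, the beta chain shared by the IL-2 and IL-15 receptors, and Il2ra encodes CD25, which raises the affinity for IL-2 and is a marker of Foxp3+ regulatory T cells. Il15ra encodes the chain that binds IL-15 and presents it to other cells, and Il7r, Il4ra, Il21r and Il9r encode the chains that give IL-7, IL-4, IL-21 and IL-9 their own receptors. The receptors signal through the kinases JAK1 and JAK3 and through STAT factors, and T cells depend on them for survival and division.

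Depth ran between 5441444 and 8354971 reads in genes per library. Cd4 and Cd8a followed the labels, and Foxp3 was high in both CD4 Treg libraries and low in the other 3. Cd4 was at 5.77 RPKM, a read count scaled by gene length and depth, in CD8 Treg, at 201 and 219 RPKM in CD4 Treg, and at 16.5 and 15.6 RPKM in CD49lo. Cd8a was at 187 RPKM in CD8 Treg, at 0.412 and 0.352 RPKM in CD4 Treg, and at 215 and 255 RPKM in CD49lo. Foxp3 was at 0.387 RPKM in CD8 Treg, at 146 and 146 RPKM in CD4 Treg, and at 1.66 and 0.795 RPKM in CD49lo. The labels do not name the surface proteins that were stained. CD25 and CD122 are commonly used to sort regulatory T cells, so for Il2ra and Il2rb a choice made by the sort and a level found in the cells cannot be told apart. Whether the replicates were separate animals is not said either, and the p-values therefore reflect only sample-to-sample spread, possibly technical in origin. Every CD8 Treg value is from a single library, which the model assumes to vary like the replicated groups.

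Promoter sequence is shown for 4 chains on which the comparisons turn: Il2ra and Il7r, which differed between the regulatory groups in opposite directions, and the neighbours Il4ra and Il21r. Each line is the 250 bases before the start of the gene in RefSeq (build GRCm38.p6, which is mm10), 5′ to 3′ on the gene's own strand. The windows are chr2:11642542-11642791 (plus strand), chr15:9529877-9530126 (minus strand), chr7:125552021-125552270 (plus strand) and chr7:125603179-125603428 (plus strand), in the order of the lines. Capitals mark matches to any of 5 motifs searched on both strands. These were a STAT motif (TTCNNNGAA), a forkhead motif (GTAAACA), a Runx motif (TGTGGT), an ETS motif (CCGGAAG) and a T-box motif (AGGTGTGA).
Il2ra promoter: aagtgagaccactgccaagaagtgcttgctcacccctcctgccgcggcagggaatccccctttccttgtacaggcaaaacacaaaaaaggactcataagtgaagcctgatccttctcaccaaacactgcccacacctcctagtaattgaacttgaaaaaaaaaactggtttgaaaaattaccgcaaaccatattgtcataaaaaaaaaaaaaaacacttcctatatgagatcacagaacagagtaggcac
Il7r promoter: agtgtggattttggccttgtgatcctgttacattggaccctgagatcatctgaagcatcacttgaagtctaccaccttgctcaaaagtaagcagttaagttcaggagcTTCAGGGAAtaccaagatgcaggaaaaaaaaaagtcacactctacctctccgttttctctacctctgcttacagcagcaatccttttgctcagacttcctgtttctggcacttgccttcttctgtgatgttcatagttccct
Il4ra promoter: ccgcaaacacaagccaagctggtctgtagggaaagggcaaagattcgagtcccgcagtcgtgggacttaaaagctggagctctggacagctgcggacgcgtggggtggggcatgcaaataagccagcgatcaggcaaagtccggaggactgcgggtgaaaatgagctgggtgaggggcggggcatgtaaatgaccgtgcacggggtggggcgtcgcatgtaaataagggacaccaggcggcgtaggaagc
Il21r promoter: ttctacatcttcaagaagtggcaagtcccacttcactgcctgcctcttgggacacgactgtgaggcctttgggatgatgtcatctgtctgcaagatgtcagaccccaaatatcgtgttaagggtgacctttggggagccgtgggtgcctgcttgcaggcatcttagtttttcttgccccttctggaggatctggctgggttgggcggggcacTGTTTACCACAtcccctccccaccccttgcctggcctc

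In the Il7r window the STAT motif began 142 bases before the gene. The motif reads the same on both strands, and 7.02% of 32851 RefSeq windows of this length held it. In the Il21r window the forkhead motif (3.17% of windows) and the Runx motif (14.0% of windows) overlapped on the opposite strand, with first bases 38 and 33 bases before the gene. No motif of the 5 was present in the Il2ra and Il4ra windows, which says only that these letters are not in these 250 bases. RefSeq windows were matched for 7 of the 8 chains, and Il2rb had none and was not searched. Of those not printed, Il2rg held a Runx motif 227 bases and an ETS motif (6.91% of windows) 17 bases before the gene. Il9r held a Runx motif 83 bases before the gene. Il15ra has 2 starts, the first with an ETS motif 104 bases before it and the second with none of the 5. The T-box motif (1.12% of windows) was in no window of the 7 chains searched. A match is a description of the sequence and was not tested as a binding site.

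The shared signalling chains are given first. Il2rb (mm10 chromosome 15, 78480553 to 78495066, minus strand) was at 302 RPKM in CD8 Treg, at 267 and 277 RPKM in CD4 Treg, and at 152 and 141 RPKM in CD49lo. It was the most abundant of the 8 chains per length in all 5 libraries, and both regulatory groups lay above both CD49lo libraries. On the log2(RPKM + 0.5) scale used for every fold change here, Il2rb was higher in CD8 Treg than in CD49lo by 1.18 ± 0.12 (SE; limma, adjusted p = 0.00132) and higher in CD4 Treg than in CD49lo by 0.92 ± 0.10 (limma, adjusted p = 0.00019). Between CD8 Treg and CD4 Treg the log2 difference was 0.26, with a 95% interval of -0.01 to 0.53 (limma, adjusted p = 0.176). In bulk RNA, fewer cells of a type and less RNA per cell cannot be told apart, here and below.

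Il2rg (chromosome X, 101264378 to 101268255, minus strand) varied little between libraries. Its level was 49.6 RPKM in CD8 Treg, 51.3 and 56.9 RPKM in CD4 Treg, and 41.2 and 46.0 RPKM in CD49lo. In unscaled RPKM the groups did not overlap, but with the scaling factors CD8 Treg (53.1) lay between the CD4 Treg libraries (51.1 and 56.2). None of the 3 differences passed the test. The log2 difference from CD49lo was 0.32 in CD8 Treg (95% interval -0.05 to 0.69; limma, adjusted p = 0.332) and 0.33 in CD4 Treg (95% interval 0.03 to 0.64; limma, adjusted p = 0.112). Between CD8 Treg and CD4 Treg it was -0.01 (95% interval -0.38 to 0.36; limma, adjusted p = 0.976). A predicted gene, Gm20489, overlaps Il2rg on the same strand and was listed at 0 in all 5 libraries, so no reads were given to it.

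Il2ra (chromosome 2, 11642792 to 11693191, plus strand) separated the regulatory groups. It was at 1.30 RPKM in CD8 Treg, at 142 and 154 RPKM in CD4 Treg, and at 2.95 and 1.69 RPKM in CD49lo. Those values rest on 35 reads in CD8 Treg, on 3909 and 3699 reads in CD4 Treg, and on 109 and 49 reads in CD49lo. CD4 Treg stood far above every other library, and CD8 Treg was the lowest of the 5. Il2ra was lower in CD8 Treg than in CD4 Treg by a log2 fold change of -6.28 ± 0.27 (limma, adjusted p = 3.1e-06) and higher in CD4 Treg than in CD49lo by 5.78 ± 0.22 (limma, adjusted p = 8.57e-07). CD8 Treg and CD49lo differed by -0.51, with a 95% interval of -1.11 to 0.10 (limma, adjusted p = 0.358), which did not pass.

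Il15ra (chromosome 2, 11705287 to 11733986, plus strand) was low and close to level across the libraries. It was at 4.48 RPKM in CD8 Treg (63 reads), at 4.46 and 3.81 RPKM in CD4 Treg (64 and 48 reads), and at 4.39 and 5.99 RPKM in CD49lo (85 and 91 reads). Each regulatory group overlapped CD49lo, and no comparison passed. The 95% interval on the log2 scale was -0.85 to 0.75 for CD8 Treg against CD49lo and -0.91 to 0.39 for CD4 Treg against CD49lo. For CD8 Treg against CD4 Treg it was -0.59 to 1.01, and changes within these intervals are not excluded. Il15ra starts 12096 bases beyond the end of Il2ra on the same strand of chromosome 2. The neighbours thus differed in pattern: Il2ra was higher in CD4 Treg than in CD49lo, while the log2 difference of Il15ra was -0.26 ± 0.29 (limma, adjusted p = 0.574).

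**Figure D1:**
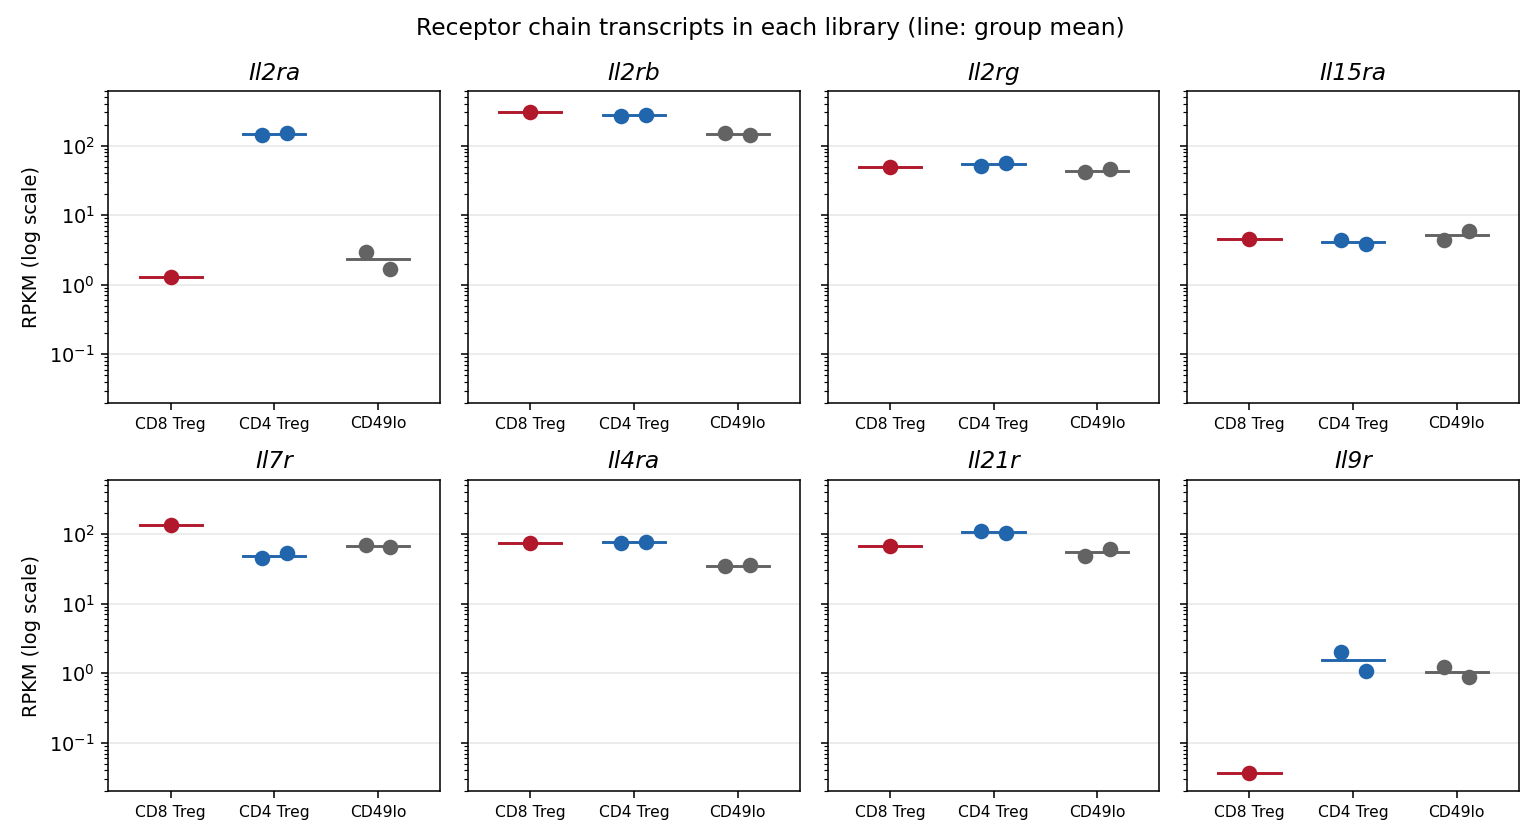
Level of each receptor chain in RPKM (log scale on the y axis) in CD8 Treg (1 library), CD4 Treg (2 libraries) and CD49lo (2 libraries); each point is a library and each line a group mean. Il2ra stands at 142 and 154 RPKM in CD4 Treg against 1.30 RPKM in CD8 Treg, Il7r is highest in CD8 Treg at 133 RPKM, and the Il9r point of CD8 Treg is 1 read.

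Among the chains private to 1 cytokine or a pair, Il7r (chromosome 15, 9506161 to 9529876, minus strand) set CD8 Treg apart. It was at 133 RPKM in CD8 Treg, at 45.1 and 52.9 RPKM in CD4 Treg, and at 68.8 and 66.1 RPKM in CD49lo. The 3 groups did not overlap, with CD8 Treg highest and CD4 Treg lowest. Il7r was higher in CD8 Treg than in CD49lo by a log2 fold change of 1.11 ± 0.14 (limma, adjusted p = 0.00318; 0.0785 with no filter, and kept in the other 7 settings) and higher in CD8 Treg than in CD4 Treg by 1.55 ± 0.14 (limma, adjusted p = 0.000147). In CD4 Treg it was lower than in CD49lo by a log2 fold change of -0.43 ± 0.12 (limma, adjusted p = 0.0253). The call of CD4 Treg against CD49lo missed the threshold in 3 of the 9 other settings, with adjusted p = 0.155 when no gene was filtered.

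Il4ra (chromosome 7, 125552282 to 125579472, plus strand), the IL-4 receptor alpha chain, which also serves IL-13, lay in the same range in both regulatory groups and above CD49lo. It was at 74.0 RPKM in CD8 Treg, at 73.4 and 78.1 RPKM in CD4 Treg, and at 35.1 and 35.4 RPKM in CD49lo. In unscaled RPKM the CD8 Treg library fell between the CD4 Treg libraries, and all 3 lay above both CD49lo libraries. With the scaling factors CD8 Treg (79.2) lay above both CD4 Treg libraries (73.1 and 77.2). Relative to CD49lo the log2 fold change was 1.20 ± 0.12 in CD8 Treg (limma, adjusted p = 0.00133) and 1.12 ± 0.10 in CD4 Treg (limma, adjusted p = 7.16e-05). CD8 Treg and CD4 Treg differed by 0.08 with a 95% interval of -0.20 to 0.35 (limma, adjusted p = 0.734), and the sign turned to -0.034 without the scaling factors.

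Il21r (chromosome 7, 125603429 to 125633570) lies 23957 bases beyond Il4ra on the same strand of chromosome 7. It was at 67.0 RPKM in CD8 Treg, at 109 and 104 RPKM in CD4 Treg, and at 49.0 and 60.8 RPKM in CD49lo. The groups did not overlap, and CD8 Treg lay between the other groups. In CD4 Treg, Il21r was higher than in CD49lo by a log2 fold change of 0.98 ± 0.12 (limma, adjusted p = 0.000531; 0.0704 with no filter, and kept in the other 8 settings). It was lower in CD8 Treg than in CD4 Treg by a log2 fold change of -0.55 ± 0.15 (limma, adjusted p = 0.0383), a call that 5 of the 8 other settings kept. In CD8 Treg the difference from CD49lo, 0.43 with a 95% interval of 0.08 to 0.77, did not pass (limma, adjusted p = 0.163). Of the neighbouring pair, then, Il4ra passed in CD8 Treg against CD49lo and Il21r did not, and whether their fold changes differ from each other was not tested.

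Il9r (chromosome 11, 32187541 to 32200279, minus strand) was low in all 5 libraries. It was at 0.0367 RPKM in CD8 Treg (1 read), at 2.01 and 1.07 RPKM in CD4 Treg (56 and 26 reads), and at 1.23 and 0.884 RPKM in CD49lo (46 and 26 reads). CD8 Treg was the lowest library. By reads alone, CD8 Treg held 0.0234 times the RPM (reads scaled by depth alone) of CD4 Treg (95% counting interval 0.000585 to 0.134) and 0.0341 times those of CD49lo (95% counting interval 0.000852 to 0.196). These intervals cover counting error only. In the model Il9r was lower in CD8 Treg than in CD4 Treg by a log2 fold change of -1.87 ± 0.52 (limma, adjusted p = 0.0392), a call that only 3 of the 8 other settings kept, with adjusted p = 0.167 by limma-voom. The fold changes understate such low genes, because 0.5 RPKM is added to each value. CD8 Treg against CD49lo did not pass (-1.49 ± 0.52; limma, adjusted p = 0.155), and CD4 Treg overlapped CD49lo.

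Of the 8 chains, 3 chains passed as higher and 0 as lower in CD8 Treg against CD49lo, namely Il2rb, Il4ra and Il7r. Of 13298 genes tested, 5.14% passed in that comparison, 1.69% as higher and 3.44% as lower. That split of the background depends on the settings: 32.9% of its 683 calls were higher, against 85.5% of 581 without a filter, 51.2% of 678 by limma-voom and 51.1% of 354 with a filter of 1 RPKM. In CD4 Treg against CD49lo, 4 chains were higher (Il2ra, Il4ra, Il21r and Il2rb) and 1 lower (Il7r), where 22.2% of all genes passed, 9.43% as higher and 12.7% as lower. In CD8 Treg against CD4 Treg, 1 chain was higher (Il7r) and 3 lower (Il2ra, Il21r and Il9r), where 16.7% of all genes passed, 8.46% as higher and 8.26% as lower. The first 2 comparisons share the CD49lo libraries. The median log2 fold change of the 8 chains was 0.38, 0.65 and 0.03 in these comparisons, in the order given, beside medians of -0.04, -0.03 and 0.02 over all genes tested.

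The calls of CD8 Treg against CD49lo rest on all 4 replicated libraries. Leaving out any 1 of them ended all 3, with adjusted p between 0.113 and 0.233 by limma and 1 residual degree of freedom in place of 2, while the fold changes kept their direction and stayed between 1.07 and 1.25. Only the Il2ra calls in the other 2 comparisons held whichever library was left out. Il4ra in CD4 Treg against CD49lo was lost without either CD49lo library, and so was Il7r in CD8 Treg against CD4 Treg. The other calls of these 2 comparisons were lost whichever of the 4 libraries was left out.

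**Figure D2:**
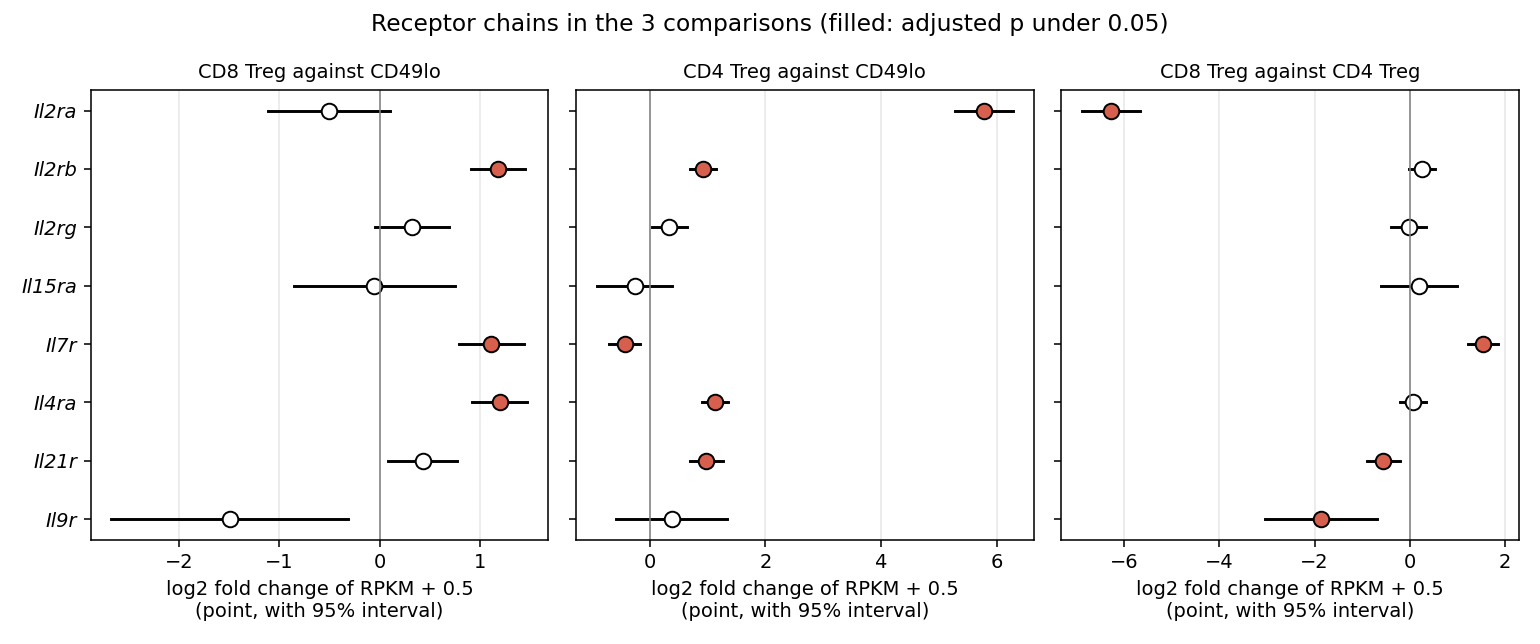
Log2 fold change of each receptor chain on the RPKM + 0.5 scale (x axis) against CD49lo for CD8 Treg (left) and CD4 Treg (middle), and for CD8 Treg against CD4 Treg (right), with 95% intervals as lines; filled points have a limma adjusted p under 0.05 over all genes tested. The fold change of Il2ra is 5.78 in the middle panel and -6.28 in the right panel. Il7r is the 1 chain that passed as higher in CD8 Treg than in CD4 Treg, by 1.55.

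Together the 8 chains summed to 632 RPKM in CD8 Treg, to 694 and 727 RPKM in CD4 Treg, and to 354 and 358 RPKM in CD49lo. Their make-up differed between the groups. Il2ra was 0.206% of that sum in CD8 Treg, 20.5% and 21.1% in CD4 Treg, and 0.832% and 0.472% in CD49lo. Il7r was 21.1% in CD8 Treg, 6.50% and 7.28% in CD4 Treg, and 19.4% and 18.5% in CD49lo. For Il2rb the shares were 47.8% in CD8 Treg, 38.4% and 38.1% in CD4 Treg, and 42.8% and 39.4% in CD49lo. So in make-up CD8 Treg had an Il7r share above that of both other groups and the lowest Il2ra share.

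**Figure D3:**
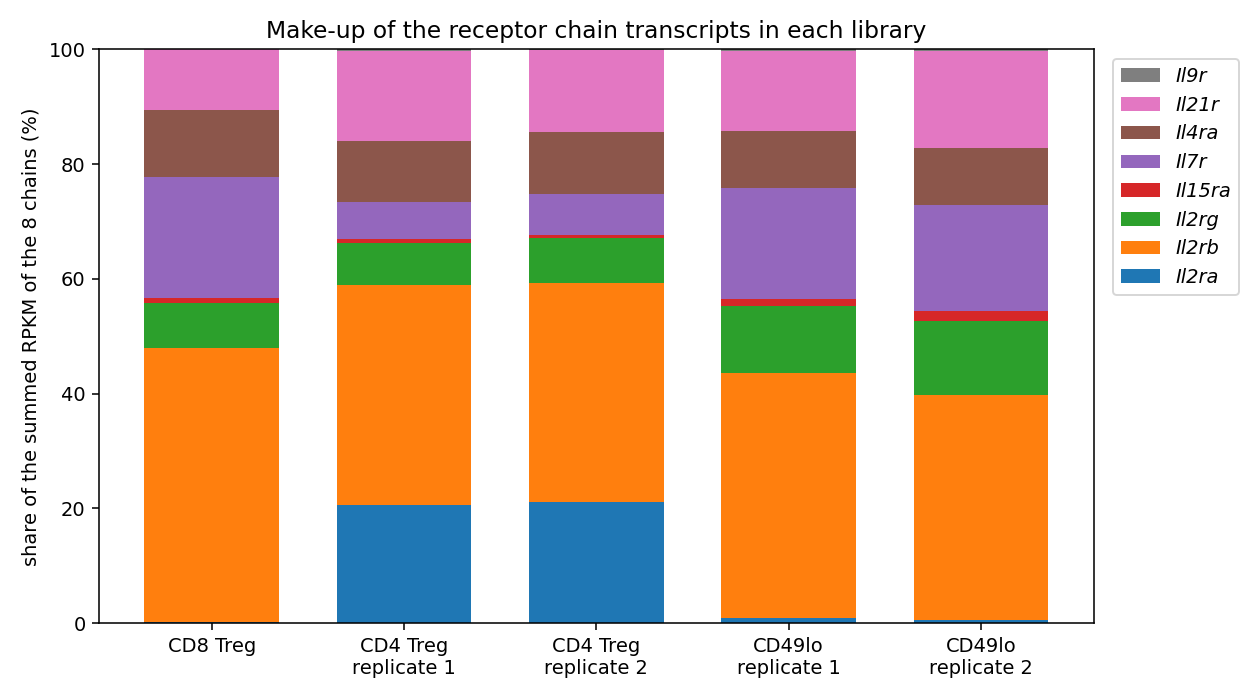
Share of each receptor chain in the summed RPKM of the 8 chains (y axis, %) in each of the 5 libraries. The Il2ra segment is 20.5% and 21.1% in the CD4 Treg libraries and under 1% in the other 3, and the Il7r segment is 21.1% in CD8 Treg.

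Set side by side per length, the chain in shortest supply for a receptor also differed between groups. For the trimeric IL-2 receptor it was Il2ra in CD8 Treg and in both CD49lo libraries, and Il2rg in both CD4 Treg libraries. For the IL-7 receptor it was Il7r in both CD4 Treg libraries, though its range there overlapped that of Il2rg, and Il2rg in the other 3. For the IL-4 receptor it was Il4ra in both CD49lo libraries and Il2rg elsewhere. Il15ra was the lowest IL-15 receptor chain, Il2rg the lowest IL-21 receptor chain and Il9r the lowest IL-9 receptor chain in all 5. The chains that pair with the common gamma chain (Il2rb, Il7r, Il4ra, Il21r and Il9r) summed to 11.6 times Il2rg in CD8 Treg, to 9.68 and 9.01 times in CD4 Treg, and to 7.42 and 6.61 times in CD49lo. The 3 groups did not overlap in this ratio, which is one of transcript levels and says nothing of protein at the surface.

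Within each group the order of levels was as follows. In CD8 Treg it ran Il2rb, Il7r, Il4ra, Il21r, Il2rg, Il15ra, Il2ra and Il9r. In CD4 Treg it ran Il2rb, Il2ra, Il21r, Il4ra, Il2rg, Il7r, Il15ra and Il9r, with Il2rg and Il7r overlapping between libraries. In CD49lo it ran Il2rb, Il7r, Il21r, Il2rg, Il4ra, Il15ra, Il2ra and Il9r, and no neighbours in that order overlapped. Il2ra was thus the second of 8 in CD4 Treg and the seventh in the other groups.

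The cytokines themselves were nearly absent. Il7 and Tslp had 0 reads in all 5 libraries. Il2 had 0 reads in CD8 Treg and in both CD4 Treg libraries, against 7 and 6 reads in CD49lo. Il15 had 1 read in CD8 Treg and 0 in both CD4 Treg libraries, against 32 and 51 reads in CD49lo. It was the 1 ligand of 8 with enough reads to be tested. It was lower in CD8 Treg than in CD49lo, at 0.0296 times the RPM (95% counting interval 0.000741 to 0.17; limma, adjusted p = 0.0486), and at least 21.6-fold lower in CD4 Treg than in CD49lo (floor of 3 reads over the group; limma, adjusted p = 0.00355). Only 2 of 8 other settings kept the first of these calls. Il15 is made mainly by myeloid and stromal cells, and a part of such cells in its reads was not tested. Summed markers of myeloid cells were highest in CD49lo. The sums of these markers were higher in CD8 Treg than in CD4 Treg, though not every dendritic cell marker was. The 7 of 8 markers of monocytes, macrophages and neutrophils in the table summed to 443 RPM in CD8 Treg, to between 24.4 and 48.7 in CD4 Treg, and to between 936 and 1063 in CD49lo. The 7 dendritic cell markers summed to 222 RPM in CD8 Treg and to between 6.80 and 9.67 in CD4 Treg. In CD49lo the sum was between 626 and 642 RPM. Clec9a was at 0 in CD8 Treg and Xcr1 at 0 in CD4 Treg. H2-Ab1 alone was at 190 RPM in CD8 Treg, 5.96 and 3.12 RPM in CD4 Treg, and 471 and 482 RPM in CD49lo. The dendritic cell sum thus leans on it. Zbtb46 ran the other way between the regulatory groups, at 0.434 RPKM in CD8 Treg and at 0.486 and 0.519 RPKM in CD4 Treg. Clec9a, with 1 and 4 reads in CD4 Treg, did so too.

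Markers of other cell types also differed between the groups. The 8 B cell markers summed to 228 RPM in CD8 Treg, to between 21.0 and 24.1 in CD4 Treg, and to between 342 and 482 in CD49lo, with no marker at 0 in a whole group. The 8 NK cell markers, of which CD8 T cells also express several such as Eomes and Gzma, summed to 490 RPM in CD8 Treg, to between 10.3 and 16.0 in CD4 Treg, and to between 601 and 1844 in CD49lo. Ncr1, the defining NK receptor, was at 18.8 RPKM in CD8 Treg, at 0 in both CD4 Treg libraries, and at 5.28 and 7.03 RPKM in CD49lo. Eomes was likewise highest in CD8 Treg (293 RPM, against 203 and 197 RPM in CD49lo). Khdc1a was instead highest in CD4 Treg, at 31 and 13 reads, and at 0 in CD8 Treg and CD49lo. Gzma alone was at 49.6 RPM in CD8 Treg and at 267 and 1387 RPM in CD49lo, so the rank of the NK sum leans on it. Each of these 4 sums was lowest in CD4 Treg and highest in CD49lo, and their part in the differences of Il15 and of the receptor chains was not tested. The 7 T cell markers summed to 2811 RPM in CD8 Treg, to between 3053 and 3072 in CD4 Treg, and to between 3347 and 3548 in CD49lo.

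Of 41 genes that supply, transmit, damp or answer these receptors' signals, or act at the receptor genes, all were in the table and 34 were tested. In CD8 Treg against CD49lo 3 were higher and 5 lower, which is 23.5% of the 34 beside 5.14% of all genes tested. In CD4 Treg against CD49lo 18 were higher and 6 lower (70.6% beside 22.2%), and in CD8 Treg against CD4 Treg 8 were higher and 17 lower (73.5% beside 16.7%). The median log2 fold changes of the 34 were 0.01, 0.46 and -0.53 in these comparisons. The split of the first comparison depends on the test, since limma-voom on the reads called 7 higher and 1 lower. All other settings with every library kept 1 of the 8, 7 of the 24 and 10 of the 25 calls. Leaving out a library cut the calls to at most 1, 9 and 4.

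The 2 further chains passed in no comparison by limma or by limma-voom, with 0, 1 and 1 of them at an unadjusted p under 0.05 by limma. Crlf2, which joins Il7r in the TSLP receptor, was at 19.5 RPKM in CD8 Treg, at 32.9 and 28.0 RPKM in CD4 Treg, and at 24.7 and 25.2 RPKM in CD49lo. Il13ra1, which joins Il4ra in the receptor for IL-4 and IL-13 that does without the common gamma chain, was at 0.887 RPKM in CD8 Treg, at 0.174 and 0.693 RPKM in CD4 Treg, and at 2.06 and 1.44 RPKM in CD49lo. Both were lowest in a regulatory group, Crlf2 in CD8 Treg and Il13ra1 in CD4 Treg.

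Most kinases and STAT factors were higher in CD4 Treg. Of 7, 0 passed in CD8 Treg against CD49lo by limma (2 at an unadjusted p under 0.05, and 0 by limma-voom), 6 were higher and 0 lower in CD4 Treg than in CD49lo (85.7%, beside 22.2% of all genes), and 1 was higher and 5 lower in CD8 Treg than in CD4 Treg (85.7%, beside 16.7%). Stat5b, a main STAT factor of IL-2, IL-7 and IL-15, was at 31.6 RPKM in CD8 Treg, at 70.3 and 70.2 RPKM in CD4 Treg, and at 39.1 and 33.3 RPKM in CD49lo. CD4 Treg was the high group, and in unscaled RPKM CD8 Treg lay just under CD49lo. With the scaling factors CD8 Treg (33.9) lay within the CD49lo range (38.4 and 32.2). Its log2 fold change was -1.03 ± 0.14 in CD8 Treg against CD4 Treg (limma, adjusted p = 0.0014) and 0.98 ± 0.12 in CD4 Treg against CD49lo (limma, adjusted p = 0.000379). Stat5a, its close relative, was at 15.4 RPKM in CD8 Treg, at 31.5 and 29.9 RPKM in CD4 Treg, and at 19.0 and 14.8 RPKM in CD49lo. CD8 Treg lay within the CD49lo range, and Stat5a was lower in CD8 Treg than in CD4 Treg by a log2 fold change of -0.86 ± 0.19 (limma, adjusted p = 0.0143), kept in 6 of 8 other settings. Stat6, the STAT factor of IL-4, fell in CD8 Treg relative to CD4 Treg by 0.58 ± 0.14 on the log2 scale (limma, adjusted p = 0.0218; kept in 5 of 8 other settings), and Stat3, the main STAT factor of IL-21, by 0.55 ± 0.13 (limma, adjusted p = 0.0184; kept in 6 of 8). Jak1, which binds the partner chains, was the 1 of 7 that was higher in CD8 Treg than in CD4 Treg (0.48 ± 0.11; limma, adjusted p = 0.0184; kept in 6 of 8). Jak3, which binds the common gamma chain, did not pass in that comparison (-0.27 ± 0.14; limma, adjusted p = 0.254).

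Feedback inhibitors induced by STAT5 differed widely between the groups. Cish was at 0.491 RPKM in CD8 Treg, at 28.0 and 23.6 RPKM in CD4 Treg, and at 2.78 and 7.49 RPKM in CD49lo. The groups did not overlap and CD8 Treg was lowest. Cish was lower in CD8 Treg than in CD4 Treg by a log2 fold change of -4.66 ± 0.43 (limma, adjusted p = 0.000158) and lower than in CD49lo by -2.28 ± 0.43 (limma, adjusted p = 0.0189), the second of which 4 of 8 other settings kept. Socs2 had 1 read in CD8 Treg, and was at 10.5 and 10.1 RPKM in CD4 Treg and at 0.931 and 1.62 RPKM in CD49lo. By RPM it stood in CD8 Treg at 0.00375 times its level in CD4 Treg (95% counting interval 9.48e-05 to 0.021), and it was lower there in the model (limma, adjusted p = 0.000198). CD8 Treg against CD49lo missed the threshold for Socs2 (-1.66 ± 0.42; limma, adjusted p = 0.0583).

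The other feedback genes did not follow a single order. Socs3, which is also induced by IL-6 family cytokines, was at 41.8 RPKM in CD8 Treg, at 105 and 98.2 RPKM in CD4 Treg, and at 25.0 and 21.5 RPKM in CD49lo. It was higher in CD8 Treg than in CD49lo by 0.97 ± 0.16 (limma, adjusted p = 0.00994; kept in 6 of 8 other settings) and lower in CD8 Treg than in CD4 Treg by a log2 fold change of -1.16 ± 0.16 (limma, adjusted p = 0.00137). Socs1 was lower in CD8 Treg than in CD4 Treg (-1.50 ± 0.20; limma, adjusted p = 0.00112). Ptpn6, which encodes the phosphatase SHP-1, was higher in CD8 Treg than in CD4 Treg (1.11 ± 0.13; limma, adjusted p = 0.000582) and lower in CD4 Treg than in CD49lo (-0.63 ± 0.11; limma, adjusted p = 0.00266). Of the 7 feedback genes, 1 was higher and 1 lower in CD8 Treg than in CD49lo (28.6%, beside 5.14% of all genes tested). In CD4 Treg against CD49lo 4 were higher and 1 lower (71.4%, beside 22.2%). For CD8 Treg against CD4 Treg 1 was higher and 4 lower (71.4%, beside 16.7%).

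Among 8 genes that these cytokines are known to induce, 2 were higher and 1 lower in CD8 Treg than in CD49lo. That is 37.5%, beside 5.14% of all genes tested. Bcl2, a survival gene induced by IL-7, was at 44.9 RPKM in CD8 Treg, at 25.2 and 24.3 RPKM in CD4 Treg, and at 14.6 and 15.4 RPKM in CD49lo. As for Il7r, CD8 Treg was the highest group, but CD49lo rather than CD4 Treg was the lowest. Bcl2 was higher in CD8 Treg than in CD49lo by 1.69 ± 0.13 (limma, adjusted p = 0.000488), the 1 pathway call of that comparison that all 8 other settings kept, and higher in CD8 Treg than in CD4 Treg by 0.95 ± 0.13 (limma, adjusted p = 0.00144). Leaving out any 1 library ended the call against CD49lo (highest adjusted p = 0.16 by limma).

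Myc, a growth regulator, was at 52.6 RPKM in CD8 Treg, at 37.9 and 37.8 RPKM in CD4 Treg, and at 26.0 and 22.8 RPKM in CD49lo, and was higher in CD8 Treg than in CD49lo (1.23 ± 0.17; limma, adjusted p = 0.00436). Irf4 was lower in CD8 Treg than in CD49lo (-0.89 ± 0.19; limma, adjusted p = 0.0289), a call that 4 of 8 other settings kept. Pim1, a kinase gene induced by STAT5, was at 41.8 RPKM in CD8 Treg, at 132 and 119 RPKM in CD4 Treg, and at 38.6 and 48.8 RPKM in CD49lo. CD8 Treg lay within the CD49lo range, and Pim1 was lower there than in CD4 Treg by a log2 fold change of -1.47 ± 0.16 (limma, adjusted p = 0.000428). Xcl1, a chemokine of cytotoxic cells, had 145 reads in CD8 Treg, 2 reads over both CD4 Treg libraries and 157 reads over both CD49lo libraries. It was higher in CD8 Treg than in CD4 Treg, at 139 times the RPM (95% counting interval 37.8 to 1160; limma, adjusted p = 0.000372). Of the 8 targets, 5 were higher and 1 lower in CD4 Treg than in CD49lo, where 22.2% of all genes tested passed. In CD8 Treg against CD4 Treg, 3 targets were higher and 3 lower, where 16.7% of all genes tested passed.

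**Figure D4:**
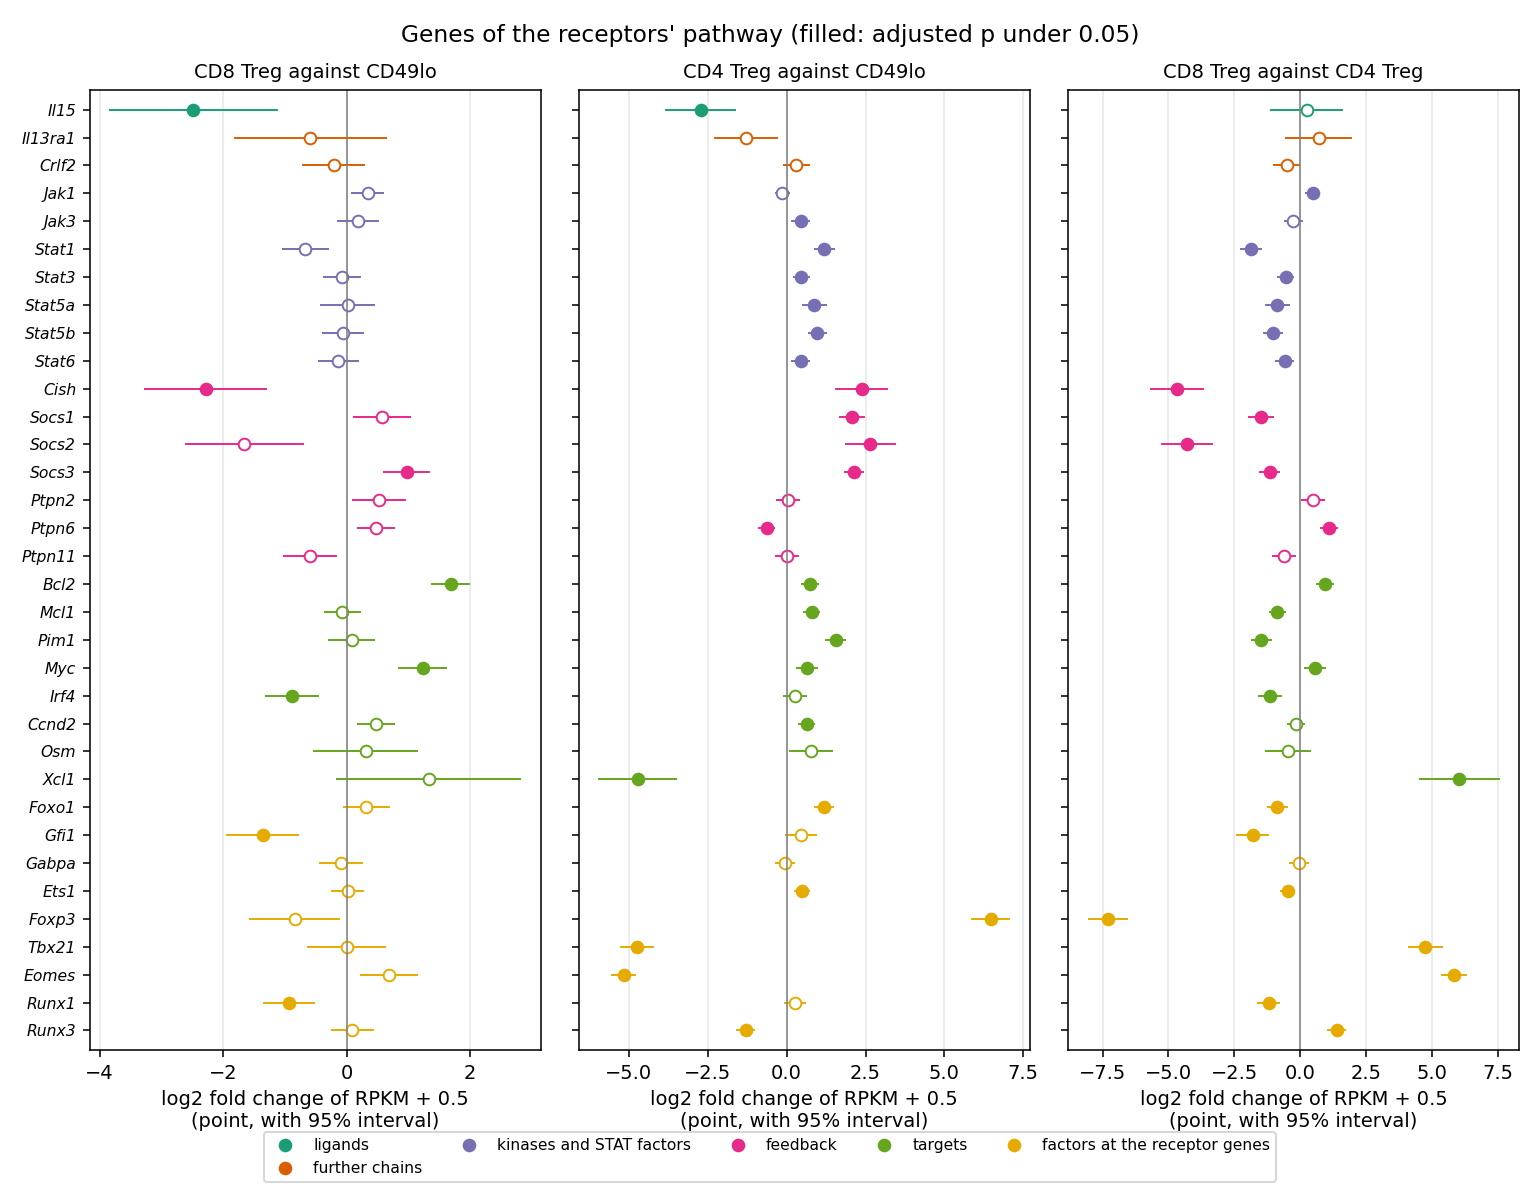
Log2 fold change on the RPKM + 0.5 scale (x axis, with 95% intervals) of the 34 pathway genes tested, against CD49lo for CD8 Treg (left) and CD4 Treg (middle), and for CD8 Treg against CD4 Treg (right); filled points have a limma adjusted p under 0.05, colours mark the role, and the x axes differ between panels. The STAT factors and Cish lie on the higher side in CD4 Treg against CD49lo, and Cish is at -4.66 in CD8 Treg against CD4 Treg.

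Transcription factors known to act at the receptor genes were 9 in number. In CD8 Treg against CD49lo, 0 were higher and 2 lower (22.2%, beside 5.14% of all genes tested). In CD4 Treg against CD49lo 3 were higher and 3 lower (66.7%, beside 22.2%). For CD8 Treg against CD4 Treg 3 were higher and 5 lower (88.9%, beside 16.7%). Foxo1, an activator of Il7r, was at 31.9 RPKM in CD8 Treg, at 64.6 and 62.1 RPKM in CD4 Treg, and at 31.3 and 25.2 RPKM in CD49lo. Il7r was lowest in CD4 Treg, where Foxo1 was highest. Foxo1 was lower in CD8 Treg than in CD4 Treg by a log2 fold change of -0.87 ± 0.16 (limma, adjusted p = 0.00588). Gfi1, a repressor of Il7r in CD8 T cells, was at 3.40 RPKM in CD8 Treg, at 14.4 and 13.8 RPKM in CD4 Treg, and at 8.87 and 12.2 RPKM in CD49lo. Its order was the reverse of that of Il7r, and it was lower in CD8 Treg than in CD49lo (-1.36 ± 0.26; limma, adjusted p = 0.0181; kept in 4 of 8 other settings) and than in CD4 Treg (-1.80 ± 0.26; limma, adjusted p = 0.00163). Gabpa, an ETS factor of the Il7r gene, passed in no comparison. Whether any of these factors set the level of Il7r was not tested.

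Eomes and Tbx21, T-box factors that activate Il2rb, were low in CD4 Treg. Eomes was at 82.4 RPKM in CD8 Treg, at 1.18 and 0.929 RPKM in CD4 Treg, and at 57.0 and 55.2 RPKM in CD49lo, and was higher in CD8 Treg than in CD4 Treg by 5.85 ± 0.20 (limma, adjusted p = 9.01e-07). Tbx21 was at 64.3 RPKM in CD8 Treg, at 2.20 and 1.99 RPKM in CD4 Treg, and at 55.2 and 90.5 RPKM in CD49lo, and the same comparison gave 4.75 ± 0.28 (limma, adjusted p = 1.29e-05). Il2rb stood at 267 and 277 RPKM in CD4 Treg, and a part of these factors in its level was not tested. Foxp3, which activates Il2ra, was higher in CD4 Treg than in CD49lo by a log2 fold change of 6.47 ± 0.26 (limma, adjusted p = 1.2e-06). Runx3, the CD8 lineage factor, was higher in CD8 Treg than in CD4 Treg by 1.38 ± 0.15 (limma, adjusted p = 0.000343), and Runx1 was lower there (-1.19 ± 0.18; limma, adjusted p = 0.00215).

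For each chain, likeness was measured as the root mean square difference of the centred log2(RPKM + 0.5) values over the 5 libraries. The genes most like Il2ra were Lrrc32, which anchors latent TGF-beta at the cell surface, at 0.30, Gpr83 at 0.34 and Foxp3 at 0.42. No gene came within 0.2 of Il2ra, while 44 did for Il2rb, 29 for Il7r, 25 for Il4ra, 213 for Il21r and 3 for Il9r. A fixed cut is stricter for a chain with a wide range. That range was 6.329 for Il2ra, 2.216 for Il9r and between 1.164 and 1.655 for Il2rb, Il7r, Il4ra and Il21r. Narg2 was nearest to Il2rb, at 0.05, and was also among the 3 nearest to Il4ra, at 0.13. Yeats2 at 0.08, Smpd5 at 0.09 and Wdr52 at 0.11 were nearest to Il7r, Lysmd2 at 0.12 to Il4ra, Gpr137c at 0.05 to Il21r, and Pou2f2 at 0.15 to Il9r. Gpr137c was at 0.340 RPKM in CD8 Treg, at 0.799 and 0.835 RPKM in CD4 Treg, and at 0.099 and 0.189 RPKM in CD49lo. Wdr52 was at 0.850 RPKM in CD8 Treg, at 0 and 0.112 RPKM in CD4 Treg, and at 0.182 and 0.116 RPKM in CD49lo. At such low levels the added 0.5 RPKM shrinks the differences and shapes the likeness. For the flat chains Il2rg and Il15ra, 2140 and 1690 genes came within 0.2, so those nearest to them, Zfp180 and Ifrd2, single out little.

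Of 13 tested genes within 50 kb of a chain that are no chains themselves, 1 passed in CD8 Treg against CD49lo (7.69%, beside 5.14% of all genes), 1 in CD4 Treg against CD49lo (7.69%, beside 22.2%) and 2 in CD8 Treg against CD4 Treg (15.4%, beside 16.7%), shares near or below the background. Kctd17, 41644 bases from Il2rb on the opposite strand, was at 0.837 RPKM in CD8 Treg, at 14.8 and 13.1 RPKM in CD4 Treg, and at 8.11 and 10.3 RPKM in CD49lo. Il2rb was high in both regulatory groups, while Kctd17 was lowest in CD8 Treg and highest in CD4 Treg. Kctd17 was lower in CD8 Treg than in CD49lo by a log2 fold change of -2.75 (limma, adjusted p = 0.00477) and than in CD4 Treg by -3.36 (limma, adjusted p = 0.000463). Gtf3c1, 7385 bases from Il21r on the opposite strand, was lower in CD8 Treg than in CD4 Treg, as Il21r was (-0.76; limma, adjusted p = 0.012). Ankrd16, beside Il15ra, was lower in CD4 Treg than in CD49lo (-0.79; limma, adjusted p = 0.0325).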

How the data were processed

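RNA from 5 libraries was measured, and CASAVA, STAR and mm10 are named in the submitters' processing notes, with versions and counting tool not given in the sources used here. The authors deposited RPKM per gene, although the table is presented as counts. Each deposited RPKM value times gene length and library total was a whole number of reads (100% of values within 0.02), so reads could be recovered; they served for the filter, scaling, prior and limma-voom. No count model was used as the main test, because the values are RPKM.

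Log2(RPKM + 0.5) values of the 3 groups (5 libraries, 2 residual degrees of freedom) were modelled with limma (version 3.58.1, R 4.3.3). Scaling factors by the TMM method (trimmed mean of M values; 0.934 to 1.037) came from separate code. Genes with at least 1.61 RPM (reads scaled by depth alone) in at least 1 library and 15 reads in total were tested. The variance prior followed the mean log2 RPM. P-values are two-sided, with Benjamini-Hochberg adjustment over 13298 genes, and a call is an adjusted p under 0.05. The fit was also run on simulated reads with the same dispersion for every gene, and no result here rests on that run. The members, lists, motifs and settings were chosen with earlier results of these data known. Named genes are the 8 chains, the pathway and marker lists, the 3 genes most alike to each chain and genes within 50 kb. Alternatives were 2 pseudocounts (0.1 and 1), 2 filters, 2 scalings, another prior, limma-voom, leaving out each replicated library and a replicate block. Promoters are RefSeq, GRCm38.p6. Symbols found more than once (72) were left out of the lists, except Cr2, of which the entry with more reads was used.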

Additional observations from a re-analysis of the deposited data

How the results depend on the processing

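No called chain changed sign under any setting tried. Of the others, leaving out a library moved Il15ra between -0.24 and 0.14 in CD8 Treg against CD49lo (higher without CD49lo replicate 2) and Il2rg between -0.082 and 0.056 in CD8 Treg against CD4 Treg (higher without CD4 Treg replicate 2). Il4ra stood at -0.034 in CD8 Treg against CD4 Treg without TMM factors. Without these factors the median of all genes in CD8 Treg against CD49lo shifted by -0.12, and 20.6% of 826 calls were higher there, beside 32.9% of 683. That split turned without a filter (85.5% of 581 higher) and was about even by limma-voom (51.2% of 678) and with the 1 RPKM filter (51.1% of 354).

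In CD8 Treg against CD49lo, 354 genes were called with a filter of 1 RPKM in a group and 358 with the prior on mean RPKM, and the pathway calls came to 2 and 3, or 3 without a filter, where 2 chains were called. Leaving out a library gave 0 to 134 genes, 0 to 0 chains and 0 to 1 pathway genes. The 0 genes came without either CD4 Treg library, where 1885 and 1870 had an unadjusted p under 0.05 by limma; of the chains, 3 to 5 had one. In CD4 Treg against CD49lo, no filter gave 684 of 2948 genes, 3 chains and 8 pathway genes, and leaving out a library 489 to 606, 1 to 2 and 6 to 9. In CD8 Treg against CD4 Treg, no filter gave 1284 of 2223 genes, 2 chains and 11 pathway genes. There, 2 chains were also called with the 1 RPKM filter and with the prior on mean RPKM, and leaving out a library gave 139 to 254 genes, 1 to 2 chains and 3 to 4 pathway genes. Without TMM factors 40.9% of 2312 calls were higher, beside 50.6% of 2223. Fits without a library have 1 residual degree of freedom, and the cause of the other shifts was not tested. Il9r was called lower in CD8 Treg than in CD49lo only with a pseudocount of 0.1 (limma, adjusted p = 0.0456).

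With the replicate block, fitted on CD4 Treg and CD49lo alone, 3596 genes, 5 chains and 26 pathway genes were called. Same-numbered libraries did not deviate together (r = -0.02 over genes). With 1 difference per group, this cannot tell whether they shared an animal or a batch. Values from 1 to a few reads, such as Il9r in CD8 Treg, are limited by depth.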
